A study of Macaca mulatta with 14 samples.

Results

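The genes described here are brakes on T cell receptor signalling: the surface receptors CD5 and CD6, the paralogues UBASH3A and UBASH3B, the transmembrane adaptors SIT1, LAX1 and PAG1, the tyrosine phosphatases PTPN6 and PTPN22, and the ubiquitin ligase CBLB. All probe sets whose only gene symbol was 1 of these 10 names were taken, which gave 19 of the 52865 probe sets on the array, for 8 genes. LAX1 and PAG1 had no such probe set in the platform annotation used and are not analysed here. The set was chosen by function and by CR minus control differences in earlier results of these data, where CR is calorie restriction: CD5, UBASH3A and SIT1 had been seen on the higher side and UBASH3B on the lower side. The diet differences below are therefore a description and support nothing by themselves.

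RNA came from peripheral blood mononuclear cells (PBMC, which hold lymphocytes and monocytes) of 14 male rhesus macaques, with 1 Affymetrix array per animal. Per the labels, replicates within a diet are biological ones. The control group was 7 animals on a control diet, aged 24 to 27 years, and the CR group was 7 animals on a restricted diet, aged 24 to 30 years. According to the design text, restriction had lasted 16 years, although its sentence names both groups. The labels give neither the degree of restriction nor the age of single animals, so diet and age within these ranges cannot be told apart.

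When a T cell receptor binds its antigen, the kinase LCK phosphorylates the CD3 chains, ZAP70 docks there, and the signal spreads through the scaffold LAT to calcium, RAS and NF-kB pathways. Brakes act at each step: phosphatases remove the phosphates, ubiquitin ligases mark kinases and adaptors for removal, and inhibitory receptors and adaptors bring these enzymes to the membrane. In blood, CD5, CD6, SIT1 and UBASH3A are known mainly from T cells, while PTPN6, PTPN22, CBLB and UBASH3B are also made by other white cells.

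Values are MAS5 signals (the array software's summary of a probe set's brightness, scaled per array), and differences are CR minus control in log2 signal with the standard error (SE) of limma's moderated fit. A gene is represented by its brightest probe set among the 26383 that passed a filter keeping the brighter 50%. The filter kept 14 of the 19 probe sets and at least 1 for each of the 8 genes. Of these 14, 10 were higher in CR, where 48.1% of all tested probe sets were. Of the genes, 7 were higher in CR and 1, UBASH3B, was lower, with a median difference of 0.46. Among all 9355 genes so measured, 54% were higher and the median difference was 0.025. The diets differed by at least 0.5 log2 units in 3 of the 8 genes, against 8.17% of all genes. The choice of genes used this contrast, so nothing is read from these counts. In the fit over the whole table, limma called 0% of probe sets at an adjusted p under 0.05, so none of the 14 was called. The smallest adjusted p was 0.771 over the table, and those of the 14 lay between 0.918 and 0.968. At an unadjusted p under 0.05, limma had 5.12% of probe sets, 605 higher and 745 lower (901 and 548 after centring each array on its median), and an ordinary linear model had 682 and 659, with 0 at an adjusted p.

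**Figure D1:**
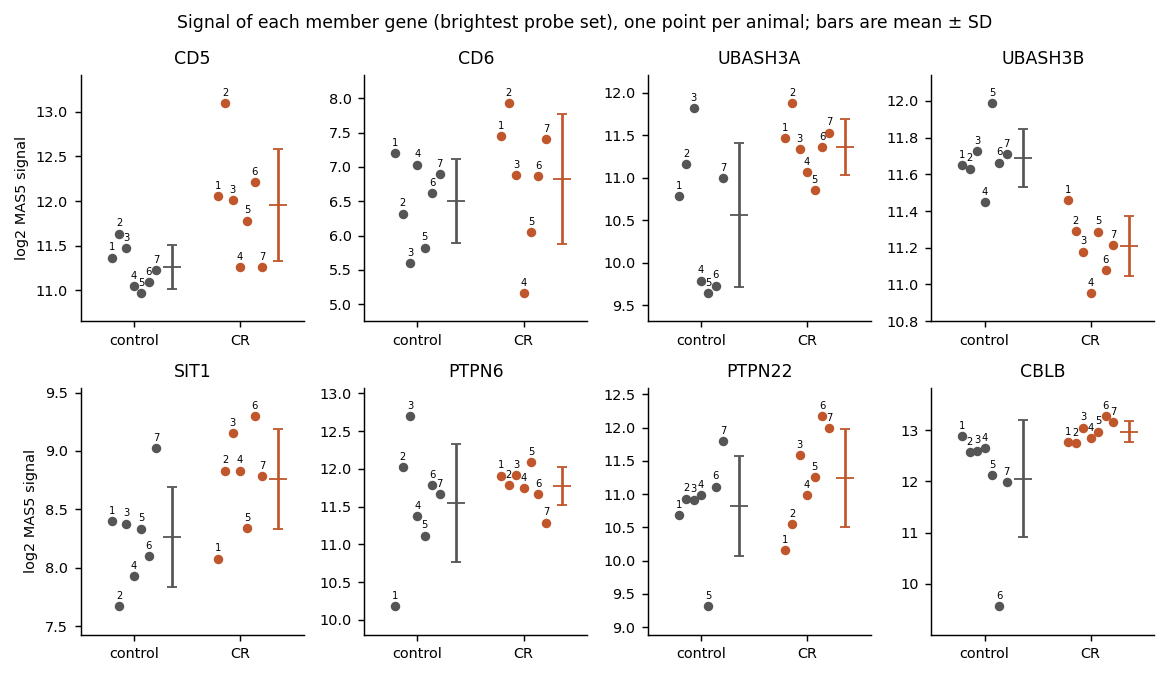
Log2 MAS5 signal (vertical axes) of the brightest probe set of each of the 8 genes, with 1 point per animal numbered by replicate, controls in grey and CR in orange, and bars for mean ± SD (n = 7 each). The groups overlap in all 8 panels, UBASH3B comes closest to separating, and control 6 stands apart for CBLB.

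CD5 is a surface glycoprotein of T cells and of some B cells whose tail recruits inhibitory enzymes, and its amount on T cells is known to follow the strength of receptor signalling. Its brightest probe set ran from 2007 to 3181 in the controls with a median of 2397, and from 2448 to 8772 with a median of 4119 in CR. Each of the 7 CR animals exceeded the control median, and 5 exceeded every control. The difference was 0.69 ± 0.24 (SE), a 1.62-fold higher geometric mean. CR 2 was the highest at 8772, and without it the difference was 0.50.

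The other probe sets of CD5 gave different sizes. One of medium brightness gave 226 to 552 in the controls and 274 to 557 in CR, groups that overlapped almost fully, and its difference was 0.19 ± 0.22. The dimmest lay below the filter. Its signal was 21.8 to 85.1 in the controls and 67.0 to 182 in CR, with 5 CR animals above every control. When fitted without the filter its difference was 1.70 ± 0.36. With diet means removed, the brightest and the medium probe sets correlated at r = 0.43 over 14 arrays (Spearman's rho 0.32, permutation p adjusted over 10 pairs 0.209 and 0.368). Within the controls r was 0.088 and within CR 0.65. Without the 2 arrays farthest from the median of the brightest, r over both diets was -0.069.

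CD6 is a receptor of the same scavenger receptor cysteine-rich family that binds ALCAM on other cells, and its gene is the direct neighbour of CD5 in the RefSeq annotation of the current rhesus assembly. It was dim on this array. The brightest of its 3 probe sets ran from 48.6 to 147 in the controls (median 98.4) and from 35.9 to 244 in CR (median 118), so the CR values spanned the whole control range. Its difference of 0.32 ± 0.40 was smaller than its SE, and without CR 2 it was 0.14. The other probe sets lay below the filter, with 2 and 8 of the 14 arrays under the floor of 16, and differed by 0.50 ± 0.56 and 0.93 ± 0.48 without the filter. With diet means removed, CD6 and CD5 correlated at r = 0.46 over the 14 arrays (Spearman's rho 0.27, permutation p adjusted over 28 pairs 0.937 and 0.892), and at 0.20 without the 2 arrays farthest from the median of CD5. The diets disagreed, with r = -0.16 within the controls and 0.63 within CR.

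UBASH3A and UBASH3B, also called STS-2 and STS-1, are paralogues with a ubiquitin-binding domain, an SH3 domain and a phosphatase-like domain. UBASH3B is the active phosphatase of the pair, removing phosphates from ZAP70 and its relative SYK, whereas UBASH3A has little phosphatase activity. They lay on opposite sides. UBASH3A, measured by 1 probe set, ran from 801 to 3628 in the controls with a median of 1761 and from 1849 to 3773 with a median of 2641 in CR. Each of the 7 CR animals exceeded the control median, but only 1 exceeded every control. The difference was 0.80 ± 0.30, a 1.74-fold higher geometric mean. It rested in part on 3 low controls: control 4 at 886, control 5 at 801 and control 6 at 851, where the next lowest control was at 1761.

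UBASH3B had 4 tested probe sets, and all 4 were lower in CR. The brightest ran from 2797 to 4064 in the controls (median 3245) and from 1983 to 2814 in CR (median 2379). In 6 of 7 CR animals the signal lay below every control, and CR 1, at 2814, exceeded only the lowest control. The groups therefore overlapped by 1 animal. None of the 8 genes was free of overlap (0 of 8), against 0.0641% of all genes (0.0834% of probe sets). The difference was -0.48 ± 0.13, which is 0.717-fold, and the spread among animals was small, with an SD of 0.16 in each diet. With 1 array left out it ran from -0.52 to -0.43.

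The second UBASH3B probe set was nearly as bright. Its signal ran from 2217 to 3362 in the controls and from 1613 to 3025 in CR, with 0 of 7 CR animals over the control median, and its difference was -0.37 ± 0.16. The dim ones, with control medians of 222 and 246, gave -0.13 ± 0.26 and -0.51 ± 0.43. With diet means removed, the 4 probe sets followed each other to different degrees. The pair of bright ones correlated at r = 0.42 (rho 0.61, permutation p adjusted over 10 pairs 0.217 and 0.127, and r = 0.45 without 2 arrays), and the brightest correlated with the dim ones at 0.086 and -0.071. The dim ones correlated with each other at 0.69 (rho 0.57, permutation p adjusted 0.0357 and 0.127, and r = 0.65 without 2 arrays).

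**Figure D2:**
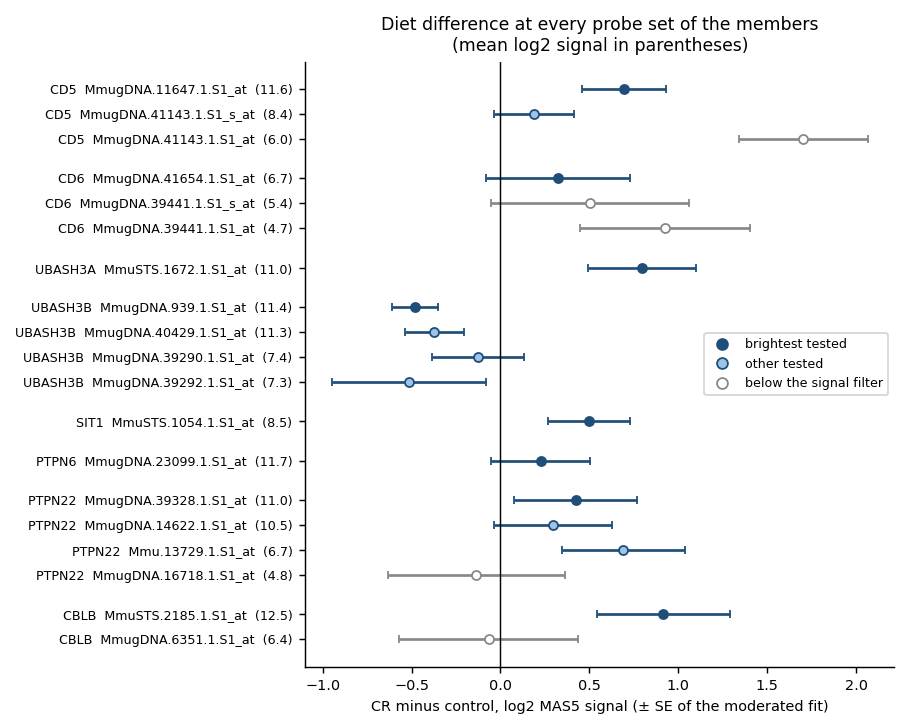
CR minus control in log2 MAS5 signal (horizontal axis) for all 19 probe sets, with bars for the SE of the moderated fit and the mean log2 signal in parentheses. Dark points are the brightest tested probe set of a gene, light points other tested ones and open points those below the filter. The 4 probe sets of UBASH3B lie to the left of 0 and those of CD5 and CD6 to the right, while PTPN22 and CBLB each have a dim probe set near or below 0.

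SIT1 is a small adaptor of lymphocyte membranes that binds the phosphatase SHP2 through phosphorylated tyrosines and interacts with the receptor complex. Its single probe set ran from 204 to 521 in the controls (median 323) and from 271 to 629 in CR (median 456). Except for CR 1 at 271, the CR animals were at or above the control median, and 2 exceeded every control. The difference was 0.50 ± 0.23, 1.41-fold. With 1 array left out it ran from 0.40 to 0.62.

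PTPN6 (SHP-1) is a phosphatase of all blood cells that docks on inhibitory receptors. Its signal was 1161 to 6637 in the controls (median 3249) and 2504 to 4369 in CR (median 3542), so all CR values lay within the control range. The difference of 0.23 ± 0.28 was smaller than its SE. Without control 1, the lowest at 1161, it was -0.0020, and without control 3, the highest at 6637, it was 0.42. Control 1 was also the array that correlated least with the others, at a median r of 0.879 against 0.908 to 0.933 for the other 13. Its log2 ratio of 3-prime to 5-prime control signal was the highest of all arrays for GAPDH (7.50, against 5.06 to 6.87) and for EF1A (5.38, against 3.24 to 4.31). On every array, however, the 3-prime signal exceeded the 5-prime signal. The GAPDH ratio ran from 5.06 (control 6) to 7.50 in the controls and from 6.03 to 6.87 in CR. The part of RNA quality in the PTPN6 value and in the diet differences of the other genes was not tested.

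PTPN22 is a lymphoid phosphatase that works with the kinase CSK to switch off LCK and ZAP70. It had 3 tested probe sets, all higher in CR. The brightest ran from 636 to 3547 in the controls (median 1957) and from 1145 to 4611 in CR (median 2441). The groups overlapped widely, since only 5 of 7 CR animals exceeded the control median, and the difference was 0.42 ± 0.35. The highest values were CR 6 at 4611 and CR 7 at 4078. Without both arrays the difference was 0.087, and without control 5, the lowest at 636, it was 0.17. The next probe set followed it closely among animals of 1 diet (r = 0.95, rho 0.96, permutation p adjusted over 10 pairs 1e-04 for each, and r = 0.96 without 2 arrays) and differed by 0.30 ± 0.33. The unadjusted p was the smallest that these resamples can give. The dimmest tested one, with medians of 90.3 in the controls and 118 in CR, differed by 0.69 ± 0.35, with each of the 7 CR animals higher than the control median.

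CBLB is a ubiquitin ligase that makes T cell activation depend on CD28 co-stimulation. Its bright probe set had the largest difference of the 8 genes, 0.92 ± 0.38, a 1.89-fold higher geometric mean. The controls ran from 755 to 7585 (median 6103) and the CR animals from 6839 to 9874 (median 8032). Each of the 7 CR animals exceeded the control median, and 4 exceeded every control. Control 6, at 755, lay far below the next control at 4055. Without it the difference was 0.50. The other CBLB probe set lay below the filter, ran from 29.0 to 147 in the controls and from 13.9 to 137 in CR, and differed by -0.067 ± 0.50 when fitted without the filter.

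The spread between animals also differed by diet in some of these genes. For CBLB the SD of log2 signal was 1.14 in the controls and 0.20 in CR (n = 7 each), a ratio of 5.74, and without control 6 the ratio was 1.74. For PTPN6 the SDs were 0.78 and 0.25, a ratio of 3.09, and without control 1 it was 2.17. For UBASH3A they were 0.85 and 0.33, a ratio of 2.56. So 3 of the 8 genes had a control SD at least 2 times the CR SD, where 9.79% of all genes did and the median ratio was 1.05. CD5 went the other way, at 0.24 in the controls and 0.63 in CR, a ratio of 0.39. Of all 9355 genes, 659 had a ratio of 0.5 or less. These ratios were not tested.

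Other genes of the pathway were taken from 2 lists. Of 32 further negative regulators, such as CSK, CBL, the diacylglycerol kinases and inhibitory receptors, 24 were tested: 11 were higher and 13 lower; their median difference was -0.038, and 0 passed (limma). The 3 with the smallest unadjusted p among those higher were the lipid phosphatase INPP5D (0.35 ± 0.18), the adaptor SLA2 (0.44 ± 0.23) and the receptor TIGIT (0.30 ± 0.22). Among those lower they were SPRY1, an inhibitor of RAS signalling (-0.46 ± 0.23), CD96 (-0.63 ± 0.45) and the phosphatase PTPRJ (-0.36 ± 0.28). CSK, the kinase that inactivates LCK, differed by -0.042 ± 0.17, CBL, the paralogue of CBLB, by -0.083 ± 0.36, and CTLA4 by -0.097 ± 0.36. PDCD1 had no single-gene probe set.

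Of 36 genes of the activating arm, 23 were tested: 14 were higher and 9 lower, with a median of 0.11, and 0 passed (limma). The kinase ZAP70 was at 13.13 ± 0.53 (log2 signal, SD, n = 7) in the controls and 13.34 ± 0.40 in CR, a difference of 0.21 ± 0.23. LAT differed by -0.35 ± 0.32. By the same rule, the genes named on the higher side were the transcription factor NFATC2 (0.48 ± 0.18), the adaptor GRAP2 (0.75 ± 0.39) and the kinase PRKCQ (0.24 ± 0.16), and on the lower side LAT, BCL10 (-0.19 ± 0.27) and NCK1 (-0.11 ± 0.19). CD3D, CD3E, CD3G, CD247, LCK and 8 others had no single-gene probe set, so the CD3 chains and LCK, on which several of these brakes act, were not measured here.

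In a mixture of blood cells, fewer cells of a type and less RNA per cell cannot be told apart. Markers of cell types were therefore set beside the genes, each list as a score: the mean of its genes' log2 values after centring each gene. The T cell list rested on 2 of 8 genes, CD28 and TRAT1, since others such as the CD3 genes had no single-gene probe set. Its score ran from -0.35 to 0.66 in the controls and from -0.59 to 0.40 in CR, and 1 of 2 genes was higher in CR. A wider T cell list of 8 measured genes, added after the values were seen, ran from -0.68 to 0.38 and from -0.38 to 0.35, with 5 of 8 higher. Its lowest and highest differences were those of LAT (-0.35) and GRAP2 (0.75), which are also genes of the activating arm. CD28 and TRAT1, the 2 genes of the first T cell score, belong to that arm too. Neither T cell score is therefore separate from the receptor pathway. NK and cytotoxic markers were higher in 8 of 9 (controls -0.68 to 0.12, CR -0.068 to 0.54). Their single differences ran from -0.065 (NCAM1), 0.010 (KLRF1) and 0.052 (NCR3) to 0.71 (GZMB) and 1.16 (CST7 and FGFBP2). Beside all these marker counts, 54% of all genes were higher in CR. B cell markers were higher in 6 of 6 (controls -0.84 to 0.43, CR -0.51 to 0.74). Monocyte markers were lower in 10 of 10, with controls from -0.39 to 0.75 and CR from -1.66 to 0.88, the lowest being CR 6 and CR 7. The listed monocyte gene LYZ was at 13.78 ± 1.20 in the controls and 13.30 ± 1.38 in CR, and the B cell gene MS4A1 at 12.69 ± 0.50 and 12.98 ± 0.81, so both cell types of PBMC were represented. No probe set of a marker list passed the fit (limma), and the part of the cell mixture in the diet differences of the 8 genes was not tested.

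With 4 scores (T cell, B cell, NK and monocyte) as covariates in the fit, several differences moved. UBASH3A went from 0.80 to -0.057, PTPN22 from 0.42 to -0.37, PTPN6 from 0.23 to -0.15 and SIT1 from 0.50 to 0.19. CBLB went from 0.92 to 0.66, UBASH3B from -0.48 to -0.37, CD5 from 0.69 to 0.76 and CD6 from 0.32 to 0.52. The median over the 8 genes was then 0.066. The NK score itself lay higher in CR, with a mean of 0.24 against -0.24 in the controls. Its ranges overlapped only in part (controls up to 0.12, CR from -0.068). The fit with the 4 scores therefore separates diet from the NK score poorly, and its differences are given without an SE. Whether the cell mixture accounts for these moves was not tested. With the 2-gene T cell score alone as covariate, UBASH3A was at 0.75 and PTPN22 at 0.39, and with the wider T cell score at 0.63 and 0.28.

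**Figure D3:**
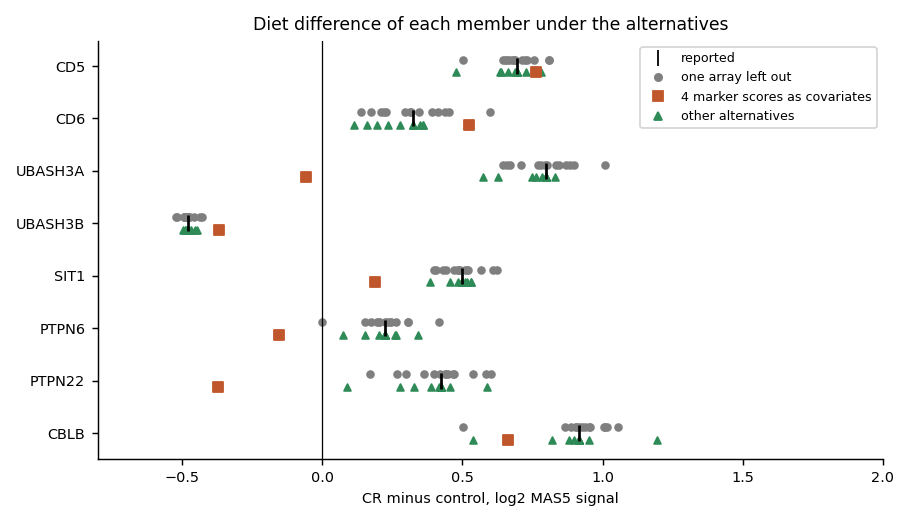
CR minus control in log2 MAS5 signal (horizontal axis) of the 8 genes under each alternative. Black bars are the reported values, grey points leave out 1 array each, orange squares add the 4 marker scores as covariates and green triangles are the other alternatives. Among the settings plotted, CD5, CD6, UBASH3B, SIT1 and CBLB keep their side of 0, UBASH3A, PTPN6 and PTPN22 cross it with the 4 scores, and PTPN6 reaches -0.0020 without control 1.

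How the genes varied between animals of the same diet was not used to choose them and was tested, although single arrays can move both quantities. Control 6, for example, moved both the diet difference of CBLB (0.92, and 0.50 without it) and its r with the monocyte score (-0.34, and -0.54 without it). Each gene's deviations from its diet mean were correlated with those of the 4 marker scores over 14 arrays, in a permutation test (two-sided, 100000 resamples within diet) with Benjamini-Hochberg adjustment over 32 pairs. In 1 pair, UBASH3B with the B cell score, the adjusted p was under 0.05, but this call was lost under several alternatives. Pearson's r was -0.78 (permutation p 0.00133, adjusted 0.0426) and Spearman's rho -0.82 (p 0.00118, adjusted 0.0378). The relation had the same size within the controls (r = -0.78) and within CR (r = -0.78). Without control 5 and CR 3, the arrays farthest from the median score, r was -0.76 but the adjusted p was 0.148 (permutation). After quantile normalization r was -0.67 and the adjusted p 0.147 (permutation), and with diet means kept they were -0.59 and 0.144. The adjusted p also rose above 0.05 without any 1 of 9 arrays (controls 2, 3, 4, 5 and 7, CR 1, 5, 6 and 7), where it reached 0.172 without control 5, and r ran from -0.84 to -0.69 with 1 array left out. The second UBASH3B probe set gave r = -0.44 (rho -0.41, permutation p adjusted over 24 pairs 0.394 and 0.424, and r = -0.66 without control 5 and CR 3), and the dim ones -0.24 and 0.020. With the monocyte score the second probe set had r = 0.73 and the brighter of the dim ones 0.63 (rho 0.62 and 0.50, permutation p adjusted 0.1002 for each r and 0.220 and 0.269 for rho), which fell to 0.38 and 0.33 without CR 6 and CR 7. The brightest probe set had r = 0.44 with it (rho 0.53, permutation p adjusted over 32 pairs 0.467 and 0.310). For the dimmest r was 0.31 (rho 0.090, permutation p adjusted over 24 pairs 0.656 and 0.854).

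Other relations did not pass. PTPN22 was low where monocyte markers were high (r = -0.72, permutation p 0.00387, adjusted 0.0619, and rho -0.70, adjusted 0.106). Within CR r was -0.93, within the controls -0.43, and without CR 6 and CR 7 it was -0.56. SIT1 showed r = -0.67 with the monocyte score (permutation p 0.00962, adjusted 0.0809, and rho -0.67, adjusted 0.106), and -0.74 without CR 6 and CR 7. PTPN22 also followed the NK and cytotoxic score (r = 0.64, rho 0.60, permutation p adjusted 0.0809 and 0.147, and r = 0.53 without control 4 and control 5). CBLB had r = -0.34 and rho -0.60 with the monocyte score (permutation p adjusted 0.228 and 0.106). Its r was -0.39 without CR 6 and CR 7 and -0.54 without control 6, and it was -0.90 within CR and -0.46 within the controls. The monocyte score itself was inversely related to the NK score (r = -0.52) and to the B cell score (r = -0.49), so these pairs are not independent. It rose with a score of platelet markers (r = 0.75). CR 6 and CR 7 were also the lowest arrays for platelet, neutrophil and dendritic cell markers. The relations with the monocyte score are therefore not shown to be particular to monocytes.

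UBASH3A followed the NK and cytotoxic score at r = 0.75 (permutation p 0.0126, adjusted 0.0809, and rho 0.70, adjusted 0.147). It was 0.90 within the controls, 0.22 within CR, and 0.58 without control 4 and control 5. The 3 controls with low UBASH3A were those with the lowest NK scores, and without these 3 arrays, a choice made after seeing the data, r was 0.34 over 11 arrays (rho 0.40, permutation p 0.321 and 0.242). With the wider T cell score r was 0.71 (rho 0.63, permutation p adjusted over 8 pairs 0.0485 and 0.223), and 0.59 without the 2 arrays farthest from its median. The NK and wider T cell scores were themselves related (r = 0.79). CD5 had r = 0.30 with the 2-gene T cell score and 0.32 with the wider one, neither of which passed. With the 2-gene score r was 0.81 within the controls and 0.14 within CR, and it ran from 0.045 without CR 4 to 0.75 without CR 2. With the wider score it was 0.82 and 0.14, and ran from 0.22 without CR 4 to 0.51 without CR 2. CD6 had r = 0.27 and 0.30 with these scores, neither of which passed, and without CR 4 they were -0.18 and 0.16.

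**Figure D4:**
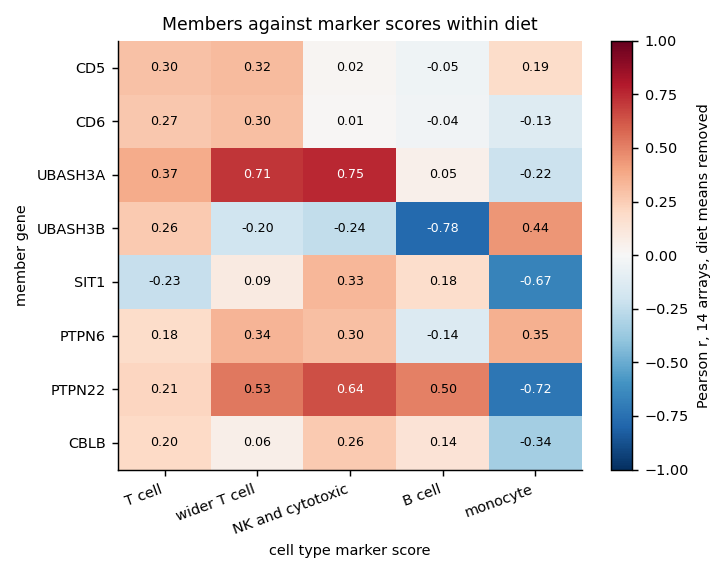
Pearson's r over 14 arrays, diet means removed, of the 8 genes (rows) with 5 marker scores (columns), coloured from -1 in blue to 1 in red. The strongest cells are UBASH3B with the B cell score (-0.78), UBASH3A with the NK and cytotoxic score (0.75) and PTPN22 with the monocyte score (-0.72).

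**Figure D5:**
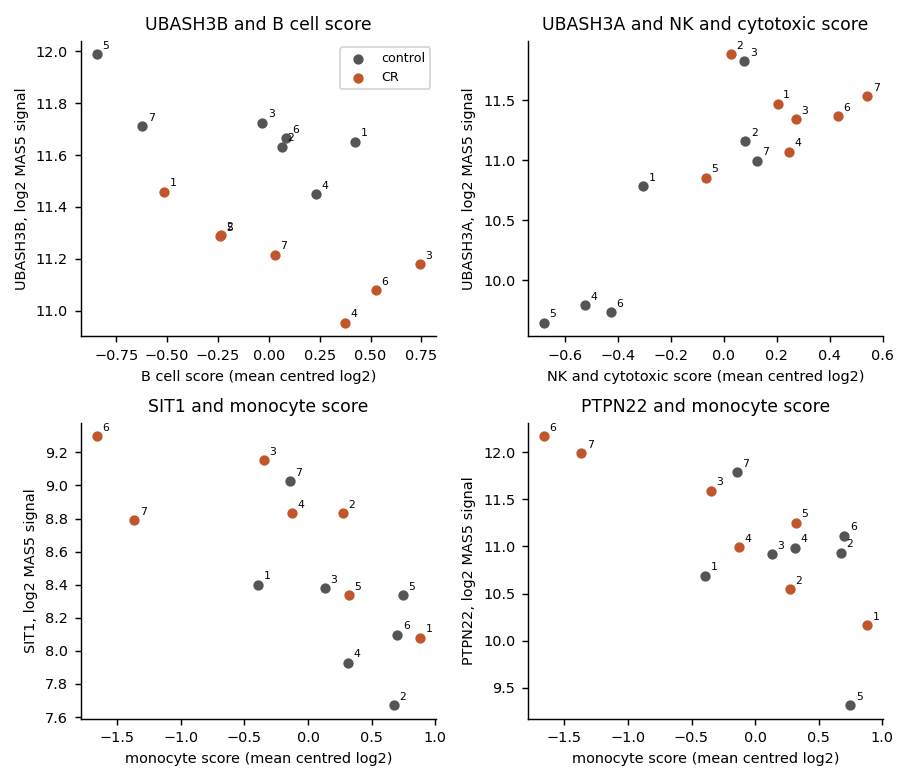
Log2 MAS5 signal of 4 genes (vertical axes) against a marker score (horizontal axes), with 1 point per animal numbered by replicate, controls in grey and CR in orange. UBASH3B falls with the B cell score in both diets at separate levels, the relation of UBASH3A with the NK score leans on controls 4, 5 and 6, and CR 6 and CR 7 lie at the low end of the monocyte score.

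Among themselves the brakes showed no relation that passed. Over the 28 pairs of genes, r ran from -0.60 to 0.50 with a median of 0.086, and 0 pairs passed the permutation test after adjustment (2 had an unadjusted p under 0.05). The highest was CD5 with UBASH3A (r = 0.50, rho 0.68, permutation p adjusted 0.146 and 0.152), at 0.52 without the 2 arrays farthest from the median of CD5. The lowest was UBASH3B with PTPN22 (r = -0.60, rho -0.44, permutation p adjusted 0.509 and 0.892), at -0.57 without 2 arrays. With 14 arrays only strong relations could pass.

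The genes whose pattern was most like each brake, by the highest Pearson's r over the 14 arrays with diet means removed among 9354 other genes, were as follows. For CD5 they were NTRK3 (0.96), TIMM22 (0.96) and TMUB1 (0.88), and for CD6 ASPRV1 (0.90), LOC717988 (0.87) and SLC39A5 (0.87). UBASH3A was nearest to TOP3A (0.93), YTHDF3 (0.92) and NOD1 (0.91), and UBASH3B to TMBIM1 (0.81), WRAP53 (0.80) and SIK1 (0.78). SIT1 had C6H5orf34 (0.86), ZNF101 (0.82) and PRDM4 (0.80). PTPN6 had SDHC (0.96), LOC701964 (0.95) and TSG101 (0.92), PTPN22 had ARMC1 (0.93), DDX59 (0.91) and PARP12 (0.91), and CBLB had ZNF829 (0.88), RAVER2 (0.87) and LOC706319 (0.86). No gene of the T cell receptor lists was among these 24. The lists of other brakes and of the activating arm held only 24 and 23 of the 9355 tested genes, so nothing is read from that. Each gene named here is the best of many comparisons over few arrays that share scaling and cell mixture, so it is a description.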

How the data were processed

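The authors deposited 1 linear intensity per probe set and array. Per the submitters' processing notes it is a MAS5 signal, of unstated version, and per the labels' protocols total RNA was extracted with Trizol and biotin-labelled. The mean of each array without its extreme values was 500.0, so total brightness had been equalised. No batch, build or detection call was given in the sources used here. The number of arrays sets the precision (median SE 0.25).

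Signals were floored at 16 and put on a log2 scale. Without the 99 AFFX controls, the brighter 50% of probe sets by mean log2 were tested (geometric mean of at least 87.7) with limma 3.58.1 in R 4.3.3 (lmFit, eBayes with trend, no covariate, Benjamini-Hochberg over all tested probe sets, threshold 0.05). In the platform annotation 24969 probe sets had 1 gene symbol, 361 several and 27535 none listed. The gene IDs of all 8 measured members matched the current RefSeq table. Named beside the members were, per pathway list, the 3 genes of smallest unadjusted p on each side and 8 fixed genes (CSK, CBL, CTLA4, PDCD1, CD3E, LCK, ZAP70 and LAT), and the 3 genes most like each member. Marker lists for neutrophils, platelets, dendritic cells, erythroid cells and plasma cells were measured too: their median differences were -0.49 (6 genes), -0.058 (7), -0.11 (5), 0.25 (1) and 0.018 (8). The fit and the permutation test were tested on simulated data. Members and lists were chosen with earlier results of these data known. No sequences were used here.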

Additional observations from a re-analysis of the deposited data

Results flagged for a closer look

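In 38 groups of 7 arrays (14 tested probe sets and 5 marker scores in each diet), 2 held an animal far from the rest of its group, where chance flags about 1 in 20. The bright CBLB probe set in control 6 was at 9.56 (log2 signal), with the next control at 11.99, a gap of 0.729 of the group's range against a critical value of 0.568. The T cell score of control 2 was 0.66, with the next control at -0.017 and a gap of 0.673 of the range.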

How the results depend on the processing

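The count of called probe sets was 0 with any 1 array left out and under the other normalizations, floors, filters, weights and covariates, and 1 without control 6 and CR 2, an alternative added after the data were seen. That probe set had no single gene listed (difference 3.09 ± 0.37, limma adjusted p 0.011). The smallest adjusted p ran from 0.011 to 0.9998 over the alternatives. The median difference over the 8 genes kept its sign in all 28 alternatives, from 0.066 with the 4 scores as covariates to 0.61, and ran from 0.36 to 0.61 with 1 array left out. Differences that changed sign were PTPN6 without control 1 (-0.0020, up to 0.42 with another array left out), UBASH3A, PTPN6 and PTPN22 with the 4 scores (-0.057, -0.15 and -0.37), and the probe sets below the filter of PTPN22 (-0.14) and CBLB (-0.067). The cause was not tested. CD5 ran from 0.50 to 0.81 and CD6 from 0.14 to 0.60 with 1 array left out.

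Of the 32 pairs of gene and score, 1 passed. This count was 0 with quantile normalization and without the 2 arrays farthest from the median score, 3 with diet means kept, and 0 to 3 with 1 array left out. With diet means kept the pair of UBASH3B and the B cell score was lost (adjusted p 0.144), and those that passed were UBASH3A with the NK score and PTPN22 and SIT1 with the monocyte score. With the replicate block, the count of called probe sets was 0 and the median difference 0.46. The titles' replicate numbers name different animals, the same-numbered pairs correlated from -0.11 to 0.18 in their deviations, and 1 of the 7 control arrays correlated best with the CR array of its own number, so no pairing was used. With 7 arrays a diet, dim probe sets such as that of CD6 limit what can be read.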
